A study of Mus musculus with 10 samples.

Results

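The genes described here encode the nuclear subunits of the mitochondrial respiratory chain, and 84 of them were found in each of the 2 tables of RNA-seq values, among 20007 genes listed for adult testis and 17816 for Sertoli cells at 7 days after birth. They were chosen by gene symbol alone, as the symbols that begin with Nduf followed by one of the letters a, b, c, s or v and a digit, with Uqcr, with Cox4 to Cox8 or with Atp5, to which Cycs and Cyct were added. By symbol, 39 belong to complex I, 8 to complex III, 18 to complex IV, 17 to complex V and 2 are cytochrome c genes. Cox6b2, Cox7b2, Cox8c and Cyct were set apart as testis isoforms. Ndufa4 was counted with complex I by its symbol, although its protein is known as a subunit of complex IV.

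The series compared mice in which Rnf20, encoding an E3 ubiquitin ligase for histone H2B, was deleted in the Sertoli cells with control mice. In the knockout, Cre recombinase driven by the Amh promoter acts on the floxed Rnf20 gene in Sertoli cells, so germ cells and other testis cells are not its target. The adult table holds whole testis from 3 wild type (WT1 to WT3) and 3 Rnf20 conditional knockout samples (KO1 to KO3), untreated, with no age in days. The day 7 table holds Sertoli cells from 2 wild type and 2 knockout samples. These cells were isolated from testes and passaged in culture, as described in the methods. The labels call the controls wild type, the methods name Rnf20 Flox/Flox mice as controls, and they name more individuals for each day 7 group than the samples analysed here. Which animals a sample came from is not given, so that p-values measure the spread between these samples only.

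Complexes I, III and IV pass electrons from NADH to oxygen and pump protons across the inner mitochondrial membrane, cytochrome c carries electrons from complex III to complex IV, and complex V, the ATP synthase, uses the proton gradient to make ATP. Several subunits of complex IV have more than one gene, with a form used in most tissues and another found in muscle, lung or testis. In the mouse, cytochrome c also has a second gene, Cyct, whose protein is found in germ cells from meiosis onwards and in sperm, whereas Cycs is used in somatic cells.

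Each testis isoform has a somatic partner for the same position in the chain: Cox6b1 for Cox6b2, Cox7b for Cox7b2, Cox8a for Cox8c, and Cycs for Cyct. On GRCm38.p6, Cox6b2 lies at chr7:4751792-4753094, Cox7b2 at chr5:71442823-71548205, Cox8c at chr12:102899306-102900534 and Cyct at chr2:76353942-76360453. The somatic genes lie elsewhere, with Cox6b1 at chr7:30616971-30626114, Cox7b at chrX:106015700-106022450, Cox8a at chr19:7215158-7217616 and Cycs at chr6:50562563-50566569. Every member is annotated as protein coding.

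The promoters of these pairs are shown because the genes of a pair moved in opposite directions in adult testis. Each line gives the 200 bases before the annotated start, 5′ to 3′ on the strand of the gene, from RefSeq on GRCm38.p6. Capitals mark exact matches, on either strand, to 3 motifs: GCATGCGC, the core of the NRF-1 site, CCGGAAG, a site of ETS factors such as GABPA, and TGACGTCA, the full cAMP response element (CRE).
Cyct: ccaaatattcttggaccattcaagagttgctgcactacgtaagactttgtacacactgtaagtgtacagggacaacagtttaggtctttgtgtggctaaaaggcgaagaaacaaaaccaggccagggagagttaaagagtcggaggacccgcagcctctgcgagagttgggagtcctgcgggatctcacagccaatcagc
Cycs: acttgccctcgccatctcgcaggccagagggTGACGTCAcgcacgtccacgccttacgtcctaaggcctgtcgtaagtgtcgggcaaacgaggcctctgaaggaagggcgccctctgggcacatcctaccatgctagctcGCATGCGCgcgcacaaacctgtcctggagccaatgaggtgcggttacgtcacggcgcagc
Cox6b2: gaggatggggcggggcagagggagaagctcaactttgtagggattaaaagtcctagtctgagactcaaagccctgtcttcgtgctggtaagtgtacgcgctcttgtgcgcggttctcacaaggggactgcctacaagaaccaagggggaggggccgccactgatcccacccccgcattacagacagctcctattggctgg
Cox6b1: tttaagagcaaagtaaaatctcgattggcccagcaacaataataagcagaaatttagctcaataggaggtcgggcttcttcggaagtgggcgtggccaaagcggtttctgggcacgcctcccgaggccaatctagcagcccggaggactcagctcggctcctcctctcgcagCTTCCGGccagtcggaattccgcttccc
Cox7b2: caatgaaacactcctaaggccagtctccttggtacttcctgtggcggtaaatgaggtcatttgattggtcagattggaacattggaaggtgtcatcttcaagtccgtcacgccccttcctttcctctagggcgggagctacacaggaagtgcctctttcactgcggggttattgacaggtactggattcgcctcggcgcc
Cox7b: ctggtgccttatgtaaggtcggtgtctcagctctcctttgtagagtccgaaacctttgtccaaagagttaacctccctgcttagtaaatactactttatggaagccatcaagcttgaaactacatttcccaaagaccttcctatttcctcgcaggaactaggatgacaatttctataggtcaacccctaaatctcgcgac
Cox8a: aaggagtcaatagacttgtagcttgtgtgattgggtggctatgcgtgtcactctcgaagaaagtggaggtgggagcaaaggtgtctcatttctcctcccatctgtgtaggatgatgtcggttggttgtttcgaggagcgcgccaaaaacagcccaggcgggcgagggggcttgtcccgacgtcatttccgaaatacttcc
These windows are chr2:76360454-76360653 on the minus strand for Cyct, chr6:50566570-50566769 on the minus strand for Cycs, chr7:4753095-4753294 on the minus strand for Cox6b2, chr7:30626115-30626314 on the minus strand for Cox6b1, chr5:71548206-71548405 on the minus strand for Cox7b2, chrX:106015500-106015699 on the plus strand for Cox7b and chr19:7217617-7217816 on the minus strand for Cox8a. No window of Cox8c is shown.

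Cycs held an NRF-1 core at positions -60 to -53 and a CRE at positions -169 to -162, counted back from -1 as the last base before the start. Cox6b1 held an ETS motif at positions -28 to -22. Cox8a held one that crosses the start, from -5 to 2, and another at 33 to 39 downstream of it, which are not in capitals because they do not lie wholly in the bases shown. Within the full windows of 250 bases before to 50 after the start, the 3 testis isoforms with a window held none of these letters, and neither did Cox7b. Of the 84 members, 68 had a window. The NRF-1 core was in 10 of them (14.7%) against 3.05% of 27025 genes with a window, the ETS motif in 15 (22.1%) against 9.93%, and the CRE in 5 (7.35%) against 2.03%. Among members with a window, the NRF-1 core was found in 5 of 17 that were higher in the adult knockout, 1 of 25 that were lower and 4 of 25 that were not called. The ETS motif was in 5, 3 and 7 of these and the CRE in 3, 2 and 0. These are descriptions of letters in a window, without a test.

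Before the members are described, 4 facts on the libraries bear on them. Estimated counts summed to between 15431912 and 16574144 per adult sample and to between 17477268 and 17705347 per day 7 sample. Rnf20 itself was not lower in the adult knockout testis, at 4.89, 3.32 and 4.09 FPKM (fragments per kilobase of transcript, scaled to library size) in wild type and 9.16, 5.76 and 9.85 FPKM in knockout (log2 fold change 0.12 ± 0.27 SE, edgeR adjusted p = 0.688), and at day 7 it was at 16.64 and 16.01 FPKM against 10.25 and 12.58 FPKM (−0.49 ± 0.12, edgeR adjusted p = 0.222). Rnf20 was called higher in the adult knockout with total-count scaling (0.97), and its value was −0.08 with median-ratio scaling. RNA of spermatids was nearly gone from the adult knockout and that of spermatocytes was lower: all 12 spermatid markers and 9 of 12 spermatocyte markers were lower and none was higher, the summed FPKM of the spermatid list went from between 130200 and 199700 to 4.34, 112.8 and 67.85 in KO1, KO2 and KO3, and that of the spermatocyte list from between 826.4 and 876.9 to 7.83, 120.4 and 198.6. Spermatogonia markers were mixed, with 2 higher, 5 lower and 5 not called of 12 tested. Of all genes tested, 40.6% were lower, so nothing is read from the share of spermatogonia markers that were lower. Markers of somatic cells were higher in the adult knockout for 6 of 16 Sertoli, 7 of 7 Leydig, 5 of 7 peritubular myoid, 6 of 6 fibroblast, 8 of 8 macrophage and 4 of 5 endothelial genes tested, beside 40.9% of all genes tested. The Sertoli share was near that background, so nothing is read from it. With total-count scaling, every Sertoli gene tested but Rhox5 (−4.70) had a positive log2 fold change, where the median of all genes tested was 0.87. In KO1, Sox9 (1.20 FPKM), Fshr (0.30 FPKM) and Dhh (2.21 FPKM) were below every wild type sample and Cldn11 (32.84 FPKM) was within the wild type range. KO2 and KO3 were above that range for each of these 4 genes. Inhbb, Gata1, Cst12 and Aard were also below every wild type sample in KO1. The 6 Sertoli genes called higher were above every wild type sample in KO1 as well. These were Gata4 (53.51 FPKM), Kitl (24.53 FPKM), Inha (765.73 FPKM), Clu (1856.83 FPKM), Wt1 (17.94 FPKM) and Amh (1.70 FPKM). A gene that is low in KO1 only varies more within the knockout group and is harder to call, so no contrast is read from this. Rhox5 of the Sertoli list (−5.57) and Actg2 of the myoid list (−7.73) were called lower. In whole testis, a change in the number of cells of a type and a change of RNA per cell cannot be told apart, and the part of cell composition in each adult result was not tested.

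The testis isoforms were among the most abundant messages of the adult wild type testis and fell in the knockout. Cox8c, the testis form of COX8, was at 1175.09, 1271.16 and 1107.95 FPKM in wild type and ranked at position 92 of 20007 genes. In knockout it was listed at 0.00 FPKM in KO1 and was at 78.04 FPKM in KO2 and 90.66 FPKM in KO3. The groups did not overlap, and the fold change on the log2 scale was −5.30 ± 1.53 (SE, n = 3 per group, edgeR adjusted p = 0.0174).

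Cox6b2, the testis form of COX6B, was at 925.70, 1129.67 and 888.49 FPKM in wild type and at 15.84, 45.77 and 65.30 FPKM in knockout. It had the lowest log2 fold change of the members, −5.44 ± 0.59 (edgeR adjusted p = 0.00027). Cox7b2, the testis form of COX7B, went from 572.38, 817.49 and 665.32 FPKM to 0.00, 53.32 and 70.11 FPKM, a log2 fold change of −4.96 ± 1.47 (edgeR adjusted p = 0.0193). Cyct, the testis cytochrome c, went from 231.41, 255.06 and 221.27 FPKM to 0.31, 19.69 and 20.64 FPKM, a log2 fold change of −5.03 ± 1.08 (edgeR adjusted p = 0.00512). For each of these genes all 3 knockout samples lay below all 3 wild type samples.

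KO1 stood apart from KO2 and KO3 in all 4 testis isoforms. It held 1.61% of the wild type mean FPKM of Cox6b2, 0.131% of Cyct and 0% of Cox7b2 and Cox8c. KO2 and KO3 held 4.66% and 6.65% for Cox6b2, 7.78% and 10.2% for Cox7b2, 6.59% and 7.65% for Cox8c, and 8.35% and 8.75% for Cyct. The same order was seen in the spermatocyte list, whose summed FPKM was at 0.915%, 14.1% and 23.2% of the wild type mean in KO1, KO2 and KO3, while the spermatid list was at 0.00258%, 0.0671% and 0.0404%. The spermatogonia list was at 16.6%, 104% and 152%. The summed FPKM of the Sertoli list had this order as well, so the order of sums was not particular to germ cell lists. It was 2913, 6317 and 7483 in KO1, KO2 and KO3, all above the wild type range of 883.0 to 1122. Clu made up most of it (1856.83, 4410.99 and 4953.39 FPKM). Sox9 and Cldn11 had this order too, whereas Inha was highest in KO1 (765.73, 244.87 and 368.15 FPKM) and Gata4 was alike in the 3 samples. With KO1 left out, the log2 fold changes were −4.92 for Cox6b2, −4.25 for Cox7b2, −4.58 for Cox8c and −4.33 for Cyct. The part of residual germ cells, or of other cells, in these values was not tested.

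The somatic partners rose in the same samples. Cox8a was at 167.75, 180.43 and 134.09 FPKM in wild type and at 1592.62, 1649.27 and 1401.28 FPKM in knockout, with a log2 fold change of 2.40 ± 0.20 (edgeR adjusted p = 9.8e-05). Cox6b1 went from 149.54, 167.59 and 108.17 FPKM to 1059.97, 1082.24 and 891.79 FPKM (1.97 ± 0.22, edgeR adjusted p = 0.000296). Cox7b went from 12.80, 12.56 and 9.03 FPKM to 174.81, 153.23 and 137.47 FPKM (2.90 ± 0.22, edgeR adjusted p = 7.26e-05). These 3 genes did not single out KO1, and the groups of each were far apart.

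Cycs rose less than the complex IV partners, from 32.59, 27.87 and 24.10 FPKM to 71.30, 115.31 and 119.84 FPKM (0.99 ± 0.23, edgeR adjusted p = 0.00659). Here KO1 was the lowest knockout sample, and without it the log2 fold change was 1.30. All 4 rises and all 4 falls were also called with total-count and with median-ratio scaling of the libraries. The falls of Cox8c and Cox7b2 kept their direction but missed the threshold in some other settings. For Cox8c the edgeR adjusted p was 0.054 with a replicate block, 0.0589 without KO2 and 0.0576 without KO3. For Cox7b2 it was 0.0515 without WT2, 0.066 without KO2 and 0.057 without KO3, and limma on log2(FPKM + 0.1) gave 0.0537.

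**Figure D1:**
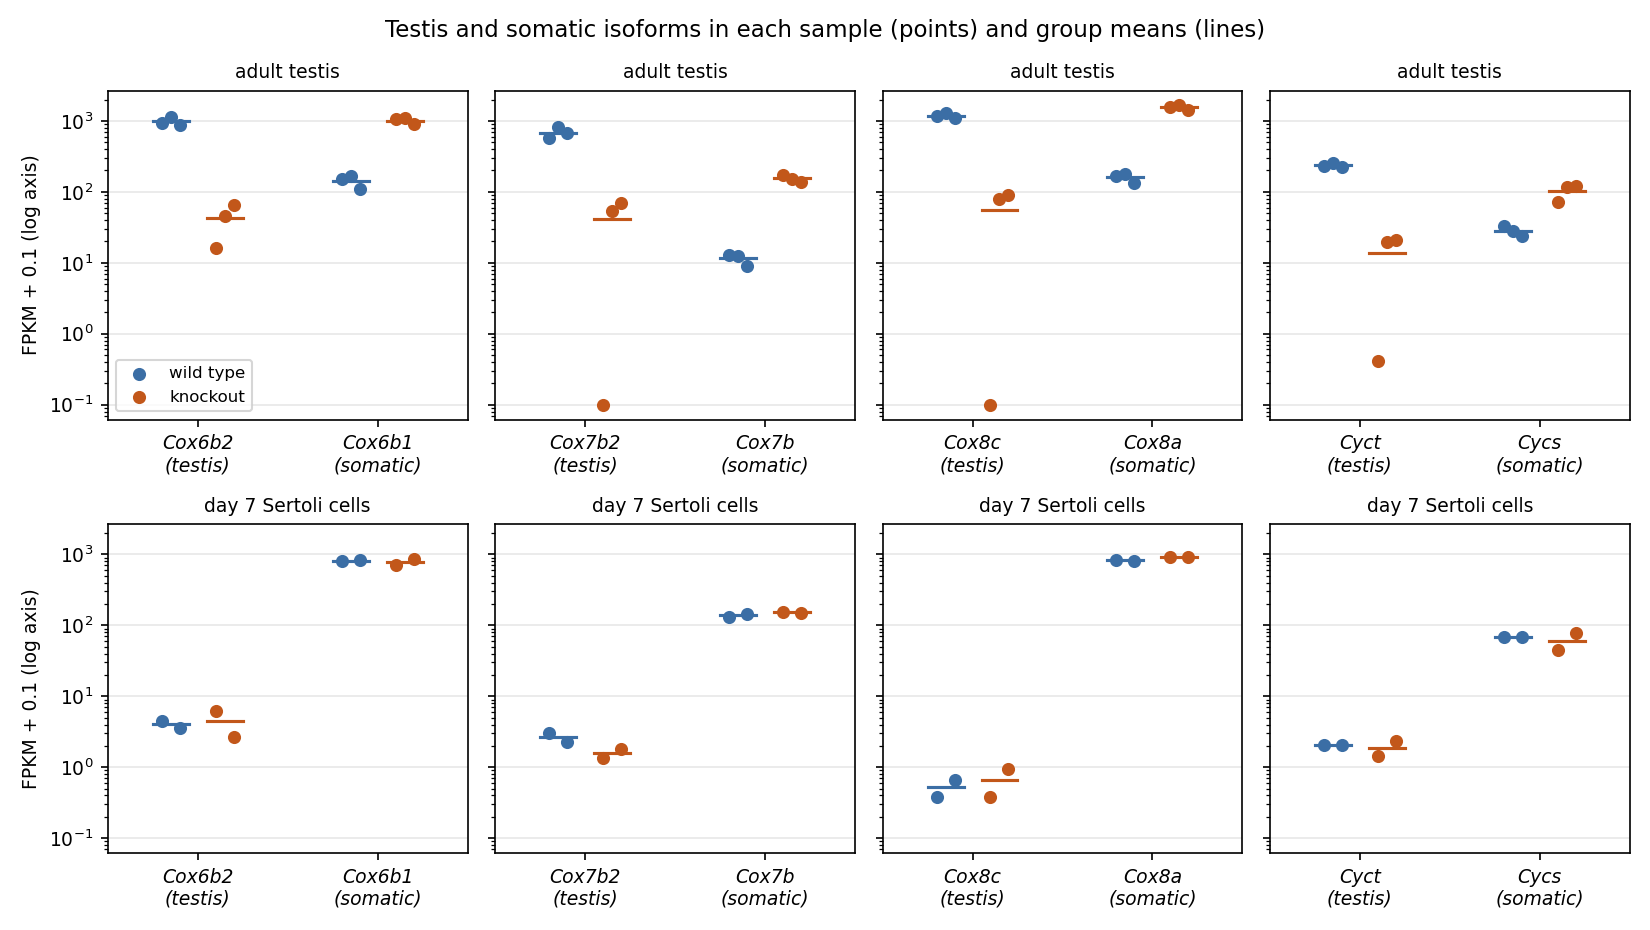
FPKM plus 0.1 of the 4 testis isoforms and their somatic partners on a log axis, with a point per sample and a line at each group mean, for adult testis (top, 3 samples per group) and day 7 Sertoli cells (bottom, 2 samples per group). In adult testis the testis isoforms are high in wild type and low in knockout and their partners the reverse, KO1 lies lowest for each testis isoform, and at day 7 the testis isoforms are low in all 4 samples.

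A ratio of the genes of a pair is taken within a library, so that scaling bears on it only through the pseudocount of 0.1 FPKM. The log2 ratio of testis to somatic isoform was lower in adult knockout by 7.60 for Cox6b2 to Cox6b1 (2.81 in wild type and −4.80 in knockout on average). The knockout minus wild type difference was −10.31 for Cox7b2 to Cox7b, −10.33 for Cox8c to Cox8a and −7.24 for Cyct to Cycs. Cox7b2 and Cox8c were listed at 0 FPKM in KO1, so that the pseudocount sets these ratios there. Without KO1 the differences were −6.97 for Cox6b2, −7.14 for Cox7b2, −7.06 for Cox8c and −5.61 for Cyct. Each ratio was lower in all 3 knockout samples than in any wild type sample. The exact two-sided permutation p was 0.1 for each of the 4 pairs, which is the smallest that 3 against 3 samples can give, and 0.1 after adjustment over the 4 pairs.

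As a share of the FPKM of its pair, Cox8c held 87.5%, 87.6% and 89.2% in wild type and 0%, 4.52% and 6.08% in knockout. Cox6b2 held 86.1%, 87.1% and 89.1% against 1.47%, 4.06% and 6.82%. Cox7b2 held 97.8%, 98.5% and 98.7% against 0%, 25.8% and 33.8%. Cyct held 87.7%, 90.1% and 90.2% against 0.433%, 14.6% and 14.7%. The testis form was thus the larger part of each pair in all wild type samples and the smaller part in all knockout samples.

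The sum of a pair did not move alike for the 4 pairs. The FPKM of Cox6b2 and Cox6b1 together were 1123 ± 156 (SD, n = 3) in wild type and 1054 ± 87.6 in knockout, within the spread between samples. Cox8c and Cox8a together were at 1345 ± 105 and 1604 ± 118 FPKM. By contrast, Cox7b2 and Cox7b together were at 696.5 ± 124 FPKM in wild type and 196.3 ± 18.6 FPKM in knockout, and Cyct and Cycs together at 264.1 ± 18.8 and 115.7 ± 38.3 FPKM. No test was made on these sums, and FPKM are tied to the total of each library.

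**Figure D2:**
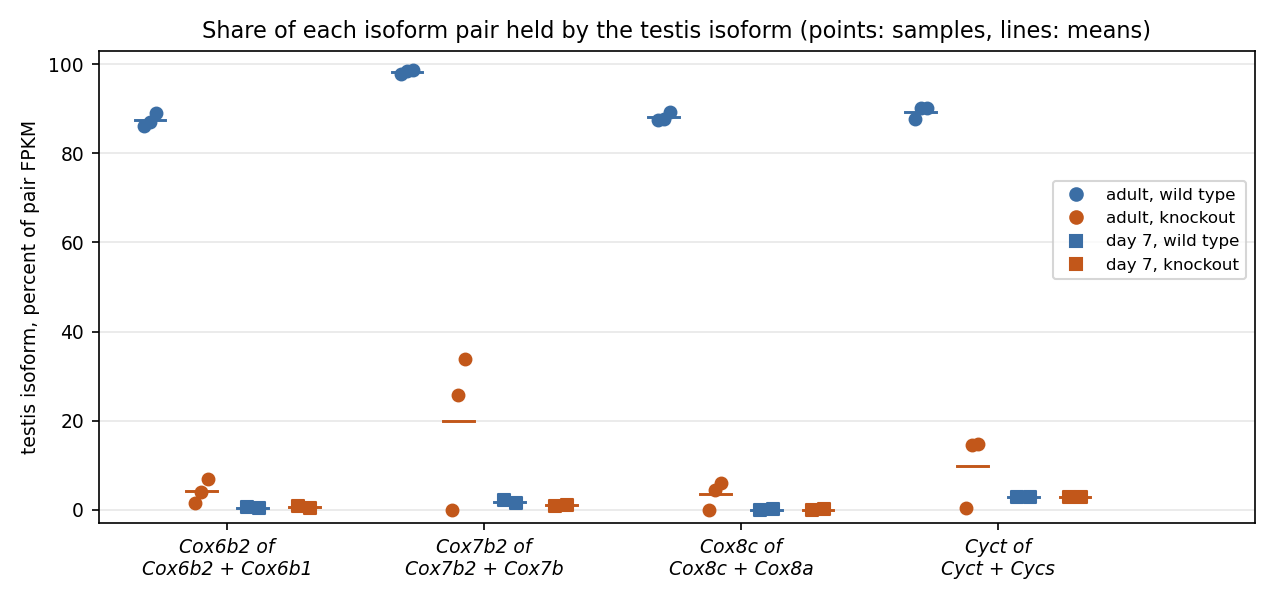
Testis isoform as a percent of the FPKM of its pair, with a point per sample and a line at each group mean, for adult testis (circles) and day 7 Sertoli cells (squares). Adult wild type samples lie between 86.1% and 98.7%, adult knockout samples between 0% and 33.8%, and day 7 samples of both genotypes near 0.

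Over all 84 members, 83 passed the filter on low values in adult testis (0.5 FPKM in at least 3 samples), all but Ndufb4b. With TMM scaling, 20 were higher in knockout, 31 were lower and 32 were not called at an edgeR adjusted p under 0.05. Among all 15919 genes tested, 40.9% were higher and 40.6% lower with this scaling. Nothing is read from the shares of members that were called, since they moved with the scaling. The groups did not overlap for 26 members that were higher and 34 that were lower, where 42.4% and 43.1% of all genes tested did not overlap in these directions.

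These counts moved with the scaling of libraries, and so did those over all genes. TMM factors were between 0.71 and 0.761 in wild type and between 1.27 and 1.42 in knockout. The median log2 fold change of the members was −0.11 with TMM, beside 0.01 over all genes tested, and 0.75 with total-count scaling, beside 0.87 over all genes. Total-count scaling gave 50 members higher in knockout against 16 lower, beside 54.1% and 30.0% of all genes tested. The corresponding counts under median-ratio scaling were 18 and 36, beside 37.6% and 43.5%. Under all 3 scalings, 18 members were higher and 16 lower, beside 37.6% and 30.0% of all genes tested.

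**Figure D3:**
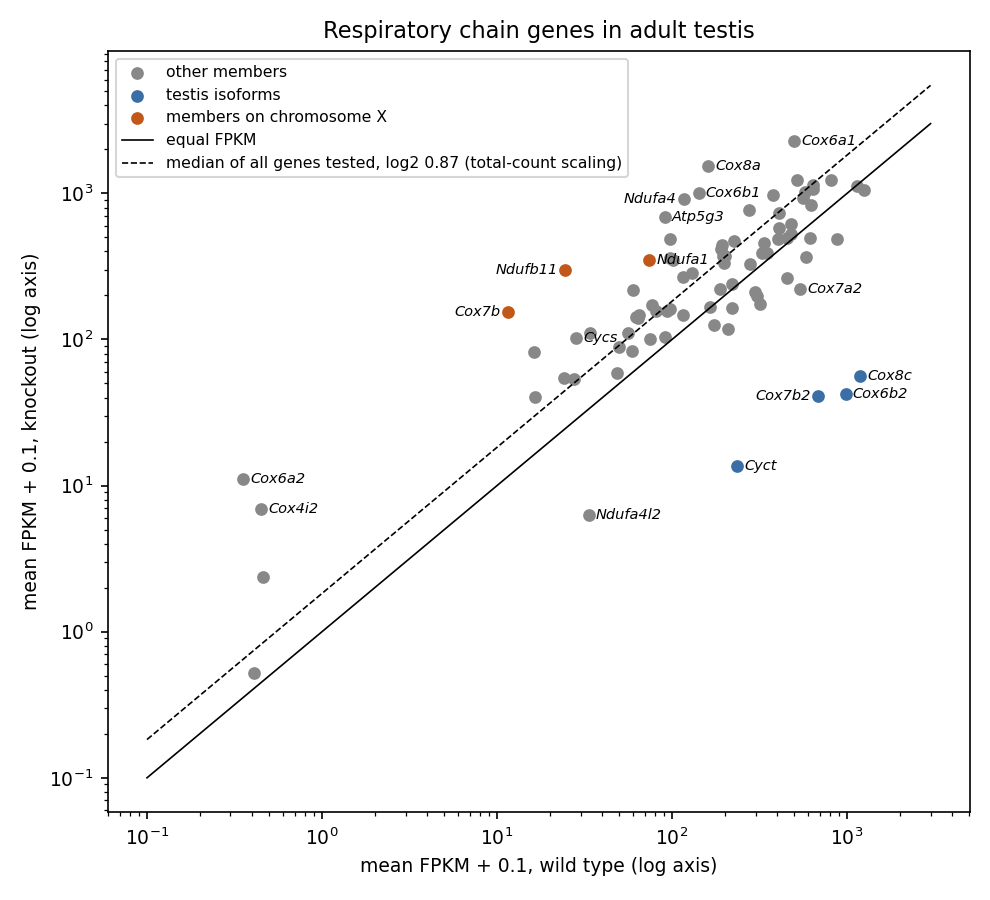
Mean FPKM plus 0.1 of the 84 members in adult knockout against adult wild type, both on log axes, with a point per gene. The solid line marks equal FPKM and the dashed line the median over all genes tested of the total-count log2 fold change, 0.87; the 4 testis isoforms (blue) lie far below both lines and the 3 members on chromosome X (orange) above both.

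Complex I, the NADH dehydrogenase, had 8 of 38 tested members higher, 16 lower and 14 not called with TMM, beside 40.9% and 40.6% of all genes tested, and 22 higher and 9 lower with total-count scaling, beside 54.1% and 30.0%. Its highest fold change was that of Ndufb11, an accessory subunit, at 27.61, 22.74 and 22.51 FPKM in wild type and 337.64, 295.15 and 262.60 FPKM in knockout (log2 2.77 ± 0.18, edgeR adjusted p = 4.66e-05). Its most abundant member by the mean over all adult samples was Ndufb4, also an accessory subunit, at 598.65, 775.18 and 536.35 FPKM against 1363.83, 1014.89 and 820.23 FPKM. In wild type Ndufc1 was higher than Ndufb4, with a mean of 876.6 against 636.7 FPKM. FPKM of Ndufb4 were higher in every knockout sample, while its log2 fold change with TMM was −0.12 ± 0.28 and was not called (edgeR adjusted p = 0.699). Its estimated counts were not whole in any adult sample, so reads shared with other loci may enter them.

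The lowest member of complex I by symbol was Ndufa4l2, a relative of Ndufa4 known for its induction in hypoxia. It was at 52.31, 24.52 and 22.85 FPKM in wild type and 8.04, 5.35 and 5.21 FPKM in knockout (log2 −3.24 ± 0.42, edgeR adjusted p = 0.000541). Ndufa4 moved the other way, from 128.37, 125.79 and 96.88 FPKM to 956.33, 963.12 and 833.06 FPKM (2.11 ± 0.17, edgeR adjusted p = 0.000101). Ndufa4l2 held 29.0%, 16.3% and 19.1% of the FPKM of both genes in wild type and 0.834%, 0.552% and 0.622% in knockout, so that the wild type samples were all above the knockout samples. WT1 was the highest of the wild type samples.

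In complex III, which passes electrons from ubiquinol to cytochrome c, fold changes were small with TMM scaling. Of 8 members, 1 was higher, 2 were lower and 5 were not called with TMM, while 6 were higher and 0 lower with total-count scaling. With only 8 members, beside the background of 40.9% higher and 40.6% lower with TMM and 54.1% and 30.0% with total-count scaling, nothing is read from these shares. Log2 fold changes with TMM lay between −0.61 and 0.60. With total-count scaling they lay between 0.24 for Uqcrc1 and 1.46 for Uqcr11, with a median of 0.70. Uqcr11, a small accessory subunit, was the highest, at 279.25, 317.87 and 232.09 FPKM against 778.08, 785.82 and 732.80 FPKM (0.60 ± 0.16, edgeR adjusted p = 0.0131). Uqcrc1, a core protein, had the lowest value, −0.61 ± 0.24, and was not called (edgeR adjusted p = 0.0506). It was at 176.57, 200.68 and 188.84 FPKM in wild type and 271.19, 219.17 and 177.86 FPKM in knockout, which overlap. The most abundant member was Uqcr10, another small subunit, at 514.1 FPKM on average in wild type and 1233 FPKM in knockout (0.39 ± 0.23, not called). Under all 3 scalings no member of complex III was called in the same direction.

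Complex IV, cytochrome c oxidase, had the widest range, from −5.44 for Cox6b2 to 4.53 for Cox6a2. Of its 18 members 7 were higher, 8 lower and 3 not called with TMM, near the background of 40.9% higher and 40.6% lower. Total-count scaling gave 9 higher and 5 lower, beside 54.1% and 30.0%. Without the testis isoforms, 7 of 15 were higher and 5 lower with TMM, and the median log2 fold change was 1.35, beside 0.01 over all genes tested. With total-count scaling, 9 of these 15 were higher and 2 lower, and the median was 2.20, beside 0.87. For all 18 members the median was −0.29 with TMM and 0.57 with total-count scaling. Leaving out genes that fell raises the median, so no rise of complex IV is read from it. Cox6a1, the form of COX6A found in most tissues, was its most abundant member by the mean over all adult samples, at 486.75, 566.22 and 434.12 FPKM in wild type and 2625.54, 2545.79 and 1711.80 FPKM in knockout (1.35 ± 0.26, edgeR adjusted p = 0.00337). In wild type Cox7c was the highest, with a mean of 1248 FPKM.

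The muscle form Cox6a2 and the lung form Cox4i2 of complex IV were low in wild type testis and higher in knockout. Cox6a2, the heart and muscle form of COX6A, was at 0.00, 0.61 and 0.15 FPKM in wild type and 23.54, 4.47 and 4.79 FPKM in knockout (4.53 ± 1.20, edgeR adjusted p = 0.0125). KO1 was far above the other knockout samples, and without it the log2 fold change was 3.36. Cox4i2, the lung form of COX4, went from 0.26, 0.65 and 0.13 FPKM to 4.96, 8.95 and 6.56 FPKM (3.39 ± 0.56, edgeR adjusted p = 0.00168). The wild type values of both genes rest on a few counts, so their fold changes are imprecise. These forms stayed minor: Cox6a2 was at most 0.889% of COX6A and Cox4i2 at most 1.06% of COX4 FPKM in any adult knockout sample. Cox4i1, the main form of COX4, was at 604.02, 706.44 and 567.82 FPKM against 895.52, 831.76 and 766.85 FPKM, with a TMM log2 fold change of −0.45 ± 0.20 that was not called (edgeR adjusted p = 0.076).

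For COX7A the muscle form took a larger share. Cox7a1 was at 22.46, 17.60 and 8.72 FPKM in wild type and 96.52, 72.94 and 77.68 FPKM in knockout (1.47 ± 0.38, edgeR adjusted p = 0.0108). Cox7a2, the form of most tissues, fell from 533.07, 608.74 and 481.04 FPKM to 211.73, 228.61 and 220.24 FPKM (−2.27 ± 0.17, edgeR adjusted p = 7.7e-05), and its counts were not whole in all 6 samples. Cox7a1 was 4.04%, 2.81% and 1.78% of both in wild type and 31.3%, 24.2% and 26.1% in knockout. Cox7a2l, a related factor of respiratory supercomplex assembly, was not called (−0.13 ± 0.15, edgeR adjusted p = 0.466). Cox8b, the heart and muscle form of COX8, was at most 0.55 FPKM in wild type and was at 3.98, 1.67 and 1.12 FPKM in knockout, and was not called (1.66 ± 0.93, edgeR adjusted p = 0.14).

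In complex V, 3 of 17 members were higher, 4 were lower and 10 were not called with TMM, beside 40.9% and 40.6% of all genes tested. Total-count scaling gave 12 higher and 1 lower, beside 54.1% and 30.0%. The ring of subunit c, which turns as protons pass, is encoded by Atp5g1, Atp5g2 and Atp5g3, whose mature proteins are the same. Atp5g3 rose most, from 95.25, 91.29 and 86.45 FPKM to 780.57, 683.72 and 592.58 FPKM (2.05 ± 0.18, edgeR adjusted p = 0.000122). Atp5g2 rose from 93.73, 109.01 and 89.05 FPKM to 560.18, 476.98 and 432.59 FPKM (1.47 ± 0.19, edgeR adjusted p = 0.000513). Atp5g1 was at 218.40, 205.65 and 155.19 FPKM against 387.73, 479.55 and 467.17 FPKM and was not called (0.34 ± 0.18, edgeR adjusted p = 0.125).

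Of the subunit c FPKM, Atp5g1 thus held 50.4% ± 3.35 (SD, n = 3) in wild type and 27.7% ± 4.64 in knockout, and Atp5g3 24.0% ± 1.91 and 42.2% ± 2.76. Atp5g2 held 25.6% ± 2.24 and 30.2% ± 1.95. The order of the genes was Atp5g1 first in each wild type sample and Atp5g3 first in each knockout sample. The third gene called higher in complex V was Atp5a1, the alpha subunit of the catalytic head, at 98.50, 90.61 and 101.52 FPKM against 400.06, 350.51 and 339.60 FPKM (1.06 ± 0.18, edgeR adjusted p = 0.00203).

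The lowest member of complex V was Atp5mpl, a small membrane subunit, with a log2 fold change of −1.79 ± 0.18 (edgeR adjusted p = 0.000191). In FPKM it was at 651.33, 700.81 and 495.79 in wild type and 474.74, 541.67 and 475.29 in knockout, which overlap. FPKM divide by an estimated transcript length that can differ between samples, and for 3 of 83 members the log2 ratio of mean FPKM differed from the total-count log2 fold change by more than 0.5: Atp5mpl (−0.31 against −0.93), Ndufa13 (−0.46 against −1.01) and Ndufv3 (1.21 against 1.92). Atp5md, a small subunit, was the most abundant member of complex V, at 806.7 FPKM on average in wild type and 1228 FPKM in knockout (−0.27 ± 0.17, not called).

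**Figure D4:**
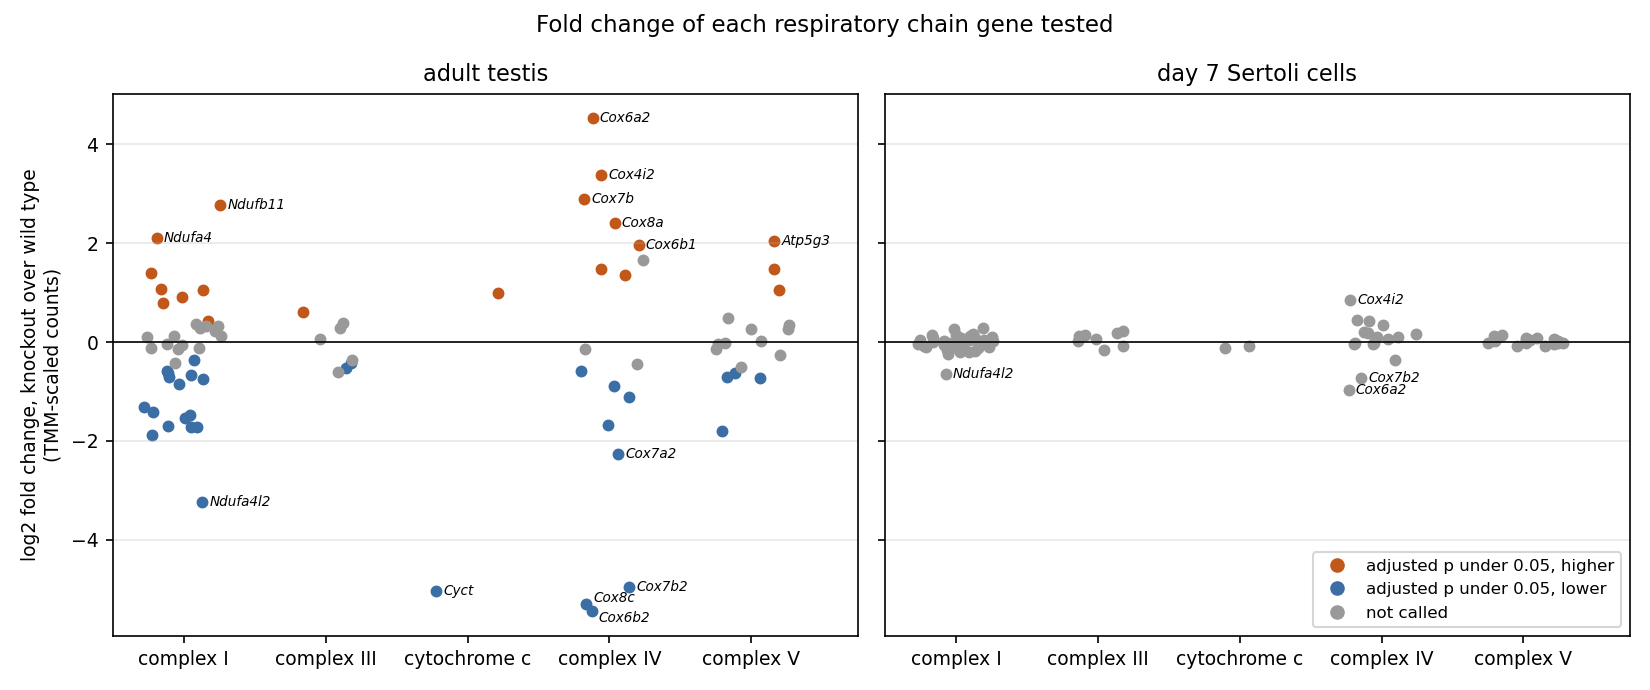
Log2 fold change of knockout over wild type with TMM scaling for each of the 83 members tested in adult testis (left) and the 83 tested in day 7 Sertoli cells (right), grouped by complex, with a point per gene, coloured by its call at an edgeR adjusted p under 0.05. Adult values run from −5.44 to 4.53 and complex III has the narrowest range of the 4 complexes; day 7 values lie between −0.96 and 0.85 and none is called.

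The 3 members on chromosome X, Cox7b, Ndufb11 and Ndufa1, were all higher in adult knockout, and they were singled out after their values were seen. Ndufa1, an accessory subunit of complex I, was at 86.39, 75.39 and 60.41 FPKM in wild type and 409.84, 357.16 and 290.58 FPKM in knockout (1.39 ± 0.21, edgeR adjusted p = 0.0011). Of the 758 genes of chromosome X tested, 47.9% were higher and 32.3% lower, with a median log2 fold change of 0.67, against 40.8% and 40.7% and a median of 0.02 for 15013 autosomal genes. Cox7b2, the testis partner of Cox7b, lies on an autosome, chromosome 5.

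As a share of all TPM (transcript abundance scaled to a fixed total per sample), the members were 2.55% ± 0.126 (SD, n = 3) of the adult wild type and 4.35% ± 0.102 of the adult knockout transcripts. Complex III went from 0.198% ± 0.0102 to 0.457% ± 0.0238, complex V from 0.645% ± 0.0255 to 1.33% ± 0.0122, complex I from 0.802% ± 0.0426 to 1.34% ± 0.0628, and complex IV from 0.881% ± 0.0526 to 1.21% ± 0.0494. The testis isoforms made up 0.312%, 0.348% and 0.339% in wild type and 0.00202%, 0.0249% and 0.0333% in knockout. The groups did not overlap for any complex. These shares rest on totals of which spermatid messages take a large part in wild type only, since the summed spermatid markers alone were at 130200 FPKM or more there.

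**Figure D5:**
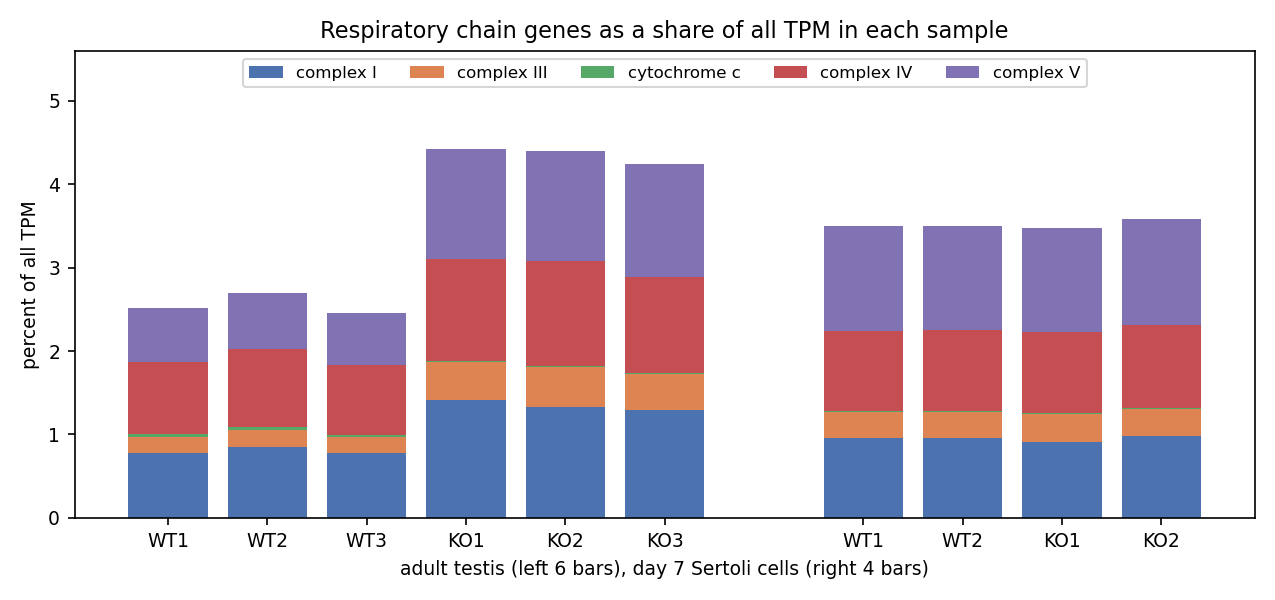
Percent of all TPM held by the members in each sample, stacked by complex, for adult testis (left 6 bars) and day 7 Sertoli cells (right 4 bars). Adult wild type bars reach 2.45% to 2.70%, adult knockout bars 4.24% to 4.42%, and day 7 bars 3.47% to 3.58%.

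Genes that work beside the chain were read from lists of known factors, and their counts stand beside 40.9% of all genes tested that were higher with TMM and 40.6% that were lower. These lists are short, so that nothing is read from their shares. All 4 subunits of complex II, succinate dehydrogenase, were higher in adult knockout, from 0.62 ± 0.20 for Sdhb (edgeR adjusted p = 0.0247) to 1.56 ± 0.24 for Sdha (edgeR adjusted p = 0.0011). Cyc1, the cytochrome c1 of complex III, was higher as well, at 31.88, 33.08 and 29.49 FPKM against 145.88, 135.70 and 123.44 FPKM (1.28 ± 0.15, edgeR adjusted p = 0.000347). None of the 13 subunits encoded by mitochondrial DNA was among the genes listed, and they were not analysed here.

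Assembly factors of complexes I, III and IV were called in both directions. For complex I 5 were higher, 7 lower and 3 not called. Of those lower, Ndufaf5 (0.10) and Ndufaf7 (0.24) were above 0 with total-count scaling. Ndufaf3 was the lowest, at 166.47, 174.38 and 176.61 FPKM against 17.09, 23.05 and 21.36 FPKM (−3.94 ± 0.16, edgeR adjusted p = 2.75e-05), and Ndufaf6 the highest (1.61 ± 0.34, edgeR adjusted p = 0.00468). For complex III 2 were higher, 3 lower and 1 not called. Lyrm7, which acts in the maturation of the Rieske iron-sulphur subunit, was the lowest, at 24.53, 23.72 and 18.88 FPKM against 0.50, 0.82 and 0.50 FPKM (−5.68 ± 0.22, edgeR adjusted p = 2.72e-05), and Bcs1l the highest (1.18 ± 0.21, edgeR adjusted p = 0.00207). KO1 did not stand apart for Ndufaf3 and Lyrm7 as it did for the testis isoforms, since the 3 knockout samples were alike. For complex IV 8 were higher, 5 lower and 8 not called, between −1.37 for Cox11 and Pet100 and 2.24 for Cox15, which acts in haem a synthesis. Of those lower, Cox19 was at 0.16 and Sco2 at −0.14 with total-count scaling.

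Of the assembly factors and inhibitor of ATP synthase, Tmem70 was higher (0.90 ± 0.15, edgeR adjusted p = 0.00154), Atpaf2 and Atpif1 were lower and Atpaf1 was not called. With total-count scaling Atpaf2 was at −0.44 and Atpif1 at −0.19. Of the carriers that bring ADP and phosphate to the ATP synthase, Slc25a3, Slc25a4 and Slc25a5 were higher, with Slc25a5 at 41.65, 32.18 and 35.45 FPKM against 470.08, 477.35 and 430.69 FPKM (2.80 ± 0.17, edgeR adjusted p = 4.26e-05). Slc25a31, the ADP/ATP carrier known from germ cells, was at 31.21, 25.97 and 30.18 FPKM against 0.20, 8.86 and 14.73 FPKM and was not called (−2.77 ± 1.08, edgeR adjusted p = 0.0509), with KO1 nearest to 0 as for the testis isoforms.

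Regulators of mitochondrial biogenesis were called in both directions, beside 40.9% of all genes higher and 40.6% lower, with 4 higher, 5 lower and 2 not called of 11 tested. Of those lower, Nrf1 was at −0.04 and Gabpb1 at −0.01 with total-count scaling. Tfb1m, a methyltransferase of mitochondrial ribosomal RNA, was the lowest (−3.29 ± 0.24, edgeR adjusted p = 6.84e-05) and Pprc1, a coactivator, the highest (1.34 ± 0.19, edgeR adjusted p = 0.000758). Beside the same background, of 13 TCA cycle genes 7 were higher, 2 lower and 4 not called, and Idh3g was the highest, at 3.04 ± 0.27 (edgeR adjusted p = 0.000122). The genes that were lower were Sucla2 (−2.16 ± 0.18, edgeR adjusted p = 0.000105) and Suclg1 (−0.96 ± 0.14, edgeR adjusted p = 0.000862). With total-count scaling Sucla2 was at −1.30 and Suclg1 at −0.11. Of 7 outer membrane genes 3 were higher and 4 lower, again beside that background, with Vdac1 at 2.96 ± 0.16 (edgeR adjusted p = 3.4e-05) and Tomm22 at −2.15 ± 0.31 (edgeR adjusted p = 0.00095) at the ends of the list. Unless total-count scaling is named, the calls and log2 fold changes of these lists are with TMM scaling. Other than Ndufaf5, Ndufaf7 and Cox19, all listed genes called lower were below 0 with total-count scaling too.

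In the day 7 Sertoli cells the respiratory chain genes differed little between genotypes. Of the 84 members 83 were tested, all but Cox8b, and none was called by edgeR at an adjusted p under 0.05, nor by DESeq2 or limma. None of all 12880 genes tested was called by edgeR either (0.0%), while DESeq2 called 388 of all genes higher and 193 lower. At an unadjusted p under 0.05, 3 members were higher and none was lower, beside 8.52% and 6.99% of all genes tested. The log2 fold change was within 0.25 of 0 for 73 members and within 0.5 for 79, and the median was 0.02, beside 0 over all genes tested. The share of all genes within these bounds was not taken, so no trait particular to the members is read from these counts. The groups did not overlap for 28 members that were higher and 9 that were lower, beside 24.8% and 26.1% of all genes.

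The 3 members with an unadjusted p under 0.05 were Cox7a2l, Ndufv3 and Ndufb3. Cox7a2l was at 81.12 and 82.20 FPKM in wild type and 101.11 and 115.29 FPKM in knockout (0.44 ± 0.09, edgeR unadjusted p = 0.0061, adjusted p = 0.176). Ndufv3, a subunit of complex I, was at 127.40 and 129.47 FPKM against 169.16 and 154.94 FPKM (0.28 ± 0.09, edgeR adjusted p = 0.284). Ndufb3 was at 73.53 and 75.23 FPKM against 88.71 and 84.92 FPKM (0.26 ± 0.09, edgeR adjusted p = 0.3). All fail the correction for the genes tested.

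The testis isoforms were low at day 7, and the somatic forms held nearly all of each pair. Cox6b2 was at 4.45 and 3.44 FPKM in wild type and 6.09 and 2.54 FPKM in knockout, while Cox6b1 was at 795.73 and 825.82 FPKM against 702.53 and 869.38 FPKM. Cox7b2 was at 2.96 and 2.15 FPKM against 1.26 and 1.72 FPKM, and Cyct at 1.93 and 1.95 FPKM against 1.33 and 2.25 FPKM. Cox8c was at 0.28 and 0.57 FPKM against 0.28 and 0.86 FPKM, which rests on at most 3 estimated counts per sample in knockout.

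As a share of its pair at day 7, Cyct was highest, between 2.76% and 2.87% in the 4 samples, and Cox8c lowest, between 0.0309% and 0.0931%. The log2 ratio of testis to somatic isoform differed between knockout and wild type by 0.06 for Cox6b2, −0.86 for Cox7b2, 0.10 for Cox8c and 0.06 for Cyct. The exact two-sided permutation p was 1 for Cox6b2 and Cox8c and, for Cox7b2 and Cyct, the smallest that 2 against 2 samples can give, which is far above 0.05 (0.666 after adjustment over the 4 pairs).

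Among the other isoforms at day 7, Cox4i2 had the highest log2 fold change, at 5.53 and 6.03 FPKM in wild type and 12.79 and 7.47 FPKM in knockout (0.85 ± 0.35, edgeR adjusted p = 0.349). Cox6a2 had the lowest, at 7.24 and 6.73 FPKM against 2.21 and 4.78 FPKM (−0.96 ± 0.41, edgeR adjusted p = 0.363). Ndufa4l2 was at 32.27 and 33.33 FPKM against 9.60 and 31.36 FPKM (−0.65 ± 0.54, edgeR adjusted p = 0.62), so that its difference lay in KO1. Cycs was at 67.99 and 68.39 FPKM against 45.07 and 76.79 FPKM (−0.12 ± 0.26, edgeR adjusted p = 0.856), and here too KO1 was the lowest sample. Atp5g1, Atp5g2 and Atp5g3 held 25.5%, 39.9% and 34.6% of the subunit c FPKM in wild type and 27.0%, 38.6% and 34.4% in knockout.

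Abundant members at day 7 were Cox6a1 in complex IV (933.30 and 939.12 FPKM against 945.05 and 1008.64 FPKM), Atp5md in complex V (903.64 and 890.08 FPKM against 792.06 and 1057.08 FPKM), Ndufa3 in complex I (674.21 and 709.71 FPKM against 561.03 and 832.88 FPKM) and Uqcrb in complex III (491.35 and 530.96 FPKM against 384.38 and 557.49 FPKM). Fold changes of complex V lay between −0.07 for Atp5mpl and 0.15 for Atp5a1, and those of complex III between −0.15 for Uqcrq and 0.22 for Uqcr11. The members made up 3.50% ± 0.00257 (SD, n = 2) of all TPM in wild type and 3.53% ± 0.0745 in knockout. No gene of complex II and none of the assembly, carrier, biogenesis, TCA cycle or outer membrane lists was called at day 7, where edgeR called none of all genes tested.

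The day 7 samples expressed Sertoli cell genes, with Sox9 at 41.84 and 39.43 FPKM in wild type and 10.19 and 25.66 FPKM in knockout, and the 7 of 12 spermatid markers found in the day 7 table together summed to at most 2.15 FPKM. Markers of other cells, germ cells among them, were present as well. The 13 spermatogonia genes summed to 217.6 and 212.2 FPKM in wild type and 150.5 and 147.2 FPKM in knockout. The 7 Leydig genes summed to 156.1 and 161.5 FPKM against 302.3 and 213.8 FPKM. The 7 peritubular myoid genes summed to 2090 and 1969 FPKM in wild type and 3645 and 3694 FPKM in knockout, and the 6 fibroblast genes to 2152 and 2236 FPKM against 3920 and 3306 FPKM. The Sertoli list summed to 2034 and 1849 FPKM against 1012 and 1505 FPKM. None of these markers was called by edgeR, which called none of all genes tested at day 7, so nothing is read from this. The groups did not overlap for 7 of 7 myoid, 6 of 6 fibroblast and 3 of 5 Leydig genes that were higher, beside 24.8% of all genes. They did not overlap for 11 of 16 Sertoli and 11 of 13 spermatogonia genes that were lower, beside 26.1%, and 1 gene of each of these 2 lists was higher. The part of cell composition in the values of the members was not tested.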

How the data were processed

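RNA was enriched with oligo(dT) beads and sequenced by the authors. Per the study's methods and the submitters' processing notes, reads were mapped to GRCm38.p6 with HISAT and to reference genes with Bowtie2, and values were computed with RSEM; versions, read filters and strand handling are not given in the sources used here, and the methods describe the day 7 samples only. The deposited tables hold raw estimated counts, FPKM, scaled by the authors by transcript length and library size, and TPM, scaled to a fixed total. In each sample, 10.7% to 13.2% of genes had estimated counts that were not whole, and counts were rounded. The adult table has 20 further columns, which hold no value and were not used.

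Each table was fitted alone, over all genes with at least 0.5 FPKM in at least a group's number of samples (15919 adult, 12880 day 7), with the quasi-likelihood test of edgeR 4.0.16, TMM scaling and Benjamini-Hochberg adjustment, and calls were made at 0.05. The standard error is the log2 fold change over the root of the test statistic. Isoform ratios used log2(FPKM + 0.1) and an exact two-sided permutation test. Overlap of groups was judged on TMM-scaled counts for calls, and on FPKM where FPKM are given. Named genes are the 4 testis isoforms, their partners, the other isoform members, the highest and lowest fold change and highest FPKM per complex and table, Rnf20, and in the other lists the extremes or all members where at most 2 were called; Cox7c, Ndufa1, Ndufa13, Ndufb3, Ndufc1, Slc25a31 and some listed genes were named after their values were seen. Members and lists were chosen with earlier results of these data known. In simulated adult counts, edgeR recovered 57.4% of 108 genes changed by 2 on the log2 scale and 1.09% of 92 changed by 1. At day 7 it recovered 88.7% of 97 and 53.4% of 103. Only these few genes were changed among the 15082 adult and 12671 day 7 genes simulated. In the real adult data most genes were called, also at small changes such as 0.43 for Ndufa11. The adult recovery therefore does not describe the adult calls. Alternatives included DESeq2 1.42.0, limma 3.58.1, other scalings and filters, the replicate block and each sample left out (R 4.3.3, Python 3.11.15). Promoter windows and coordinates are from RefSeq on GRCm38.p6.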

Additional observations from a re-analysis of the deposited data

How the results depend on the processing

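The counts of members called in adult testis moved with the scaling. Members called higher were 20 with TMM, 50 with total-count scaling, 51 with limma on log2(FPKM + 0.1) or on log2(FPKM + 1), and 8 at a log2 fold change over 1 with an adjusted p under 0.001. Members called lower were 31, and 16, 14, 15 and 13 under these settings. Of all genes tested, 40.9%, 54.1%, 53.5%, 53.6% and 23.0% were higher and 40.6%, 30.0%, 30.7%, 31.2% and 23.7% lower in the same order. The median log2 fold change of −0.11 was 0.75 with total-count scaling, 0.76 with limma at either pseudocount and −0.30 with median-ratio scaling and with DESeq2. With 1 sample left out, 18 to 26 members were higher and 20 (without KO3) to 33 lower, beside 37.5% to 45.3% and 37.6% to 41.1% of all genes, and the median was between −0.16 and 0.05. Among genes named, where a value passed the threshold on either side, the sign turned with limma for Cox4i1 (0.41 at both pseudocounts), and with total-count scaling and limma at pseudocounts 0.1 and 1 for Cox7a2l (0.73, 0.73, 0.72), Ndufb4 (0.73 in all), Atp5md (0.59, 0.62, 0.62), Ndufa3 (0.82, 0.83, 0.83), Uqcrq (0.34, 0.35, 0.34) and Uqcrb (0.49, 0.50, 0.50). Below the threshold on both sides, the sign turned in 11 adult cases, among them Cox4i1 with total-count scaling (0.41) and Uqcrc1 with total-count scaling (0.24) and limma (0.22), and in 21 cases at day 7. The cause was not tested.

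At day 7, 8 members were higher and 0 lower without KO1, 8 were higher and 11 lower without KO2, and 0 in each direction without either wild type sample. Of all genes tested, 9.74% were higher and 11.7% lower without KO1, and 21.0% and 18.8% without KO2. Cycs was at 0.21 without KO1. The cause was not tested, and a lone knockout sample was assumed to vary like the wild type samples. The Cox6b2 to Cox6b1 log2 ratio turned to between −0.71 and −0.14 with 1 sample left out (main value 0.06), and Cox8c to Cox8a (0.10) to −0.03 with a pseudocount of 1, −0.01 on TMM-scaled counts and as low as −0.55 with 1 sample left out. Same-numbered samples deviated together with a correlation of at most 0.036, so the numbers were not taken to pair samples; with a replicate block 20 adult members were higher and 27 lower, beside 38.1% and 38.6% of all genes, and none was called at day 7. Of values of single genes, 402 in adult testis and 352 at day 7 kept direction and side of the threshold, 19 lost a call and 44 gained one. Depth limits the values of Cox8c at day 7 and of Cox8b and Ndufb4b in both tables, which rest on a few counts.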
